A study of Solanum lycopersicum with 6 samples.

Results

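SlGPAT4 (Solyc01g094700), SlGPAT5 (Solyc04g011600), SlASFT (Solyc03g097500) and SlABCG2 (Solyc05g054890) are tomato genes assigned to assembling, feruloylating and exporting suberin monomers. They were taken by their locus identifiers, as the genes that the study assigns to these steps, and are 4 of the 34688 gene models in the count table. Libraries came from protoplasted roots of wild-type tomato cv. M82 and from whole roots of the same cultivar, with 3 libraries in each group. Seedlings of both groups are taken as 7 days past sowing, with 50 to 100 primary roots of about 3 cm from the tip per sample. The study's methods give these values for protoplast isolation and do not describe how whole roots were collected. Protoplasts are cells freed of their walls, here by 2 h at 25 °C in cellulases, Macerozyme and pectolyase, whereas no digestion is given for the whole roots. The labels name no mock incubation for whole roots, so enzyme treatment and time out of the seedling cannot be told apart. The question behind the comparison was which transcripts change when root cells are prepared for single-cell sequencing.

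Suberin is a polyester of fatty acid derivatives, glycerol and ferulic acid that seals the walls of certain root and periderm cells, and in young tomato roots it is laid down in the exodermis, the outermost cortical layer. Glycerol-3-phosphate acyltransferases (GPATs) join oxidized acyl chains to glycerol to make the building blocks of the polyester. The BAHD acyltransferase called ASFT in Arabidopsis and FHT in potato transfers ferulate to ω-hydroxy fatty acids and fatty alcohols, and half-size ABCG transporters have been linked to export of suberin precursors in Arabidopsis and potato. Lipid transfer proteins and GDSL-type esterases are thought to act after export, in the apoplast.

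The sequences that the study designed against these genes are its CRISPR guides, shown here because they are the sequences by which the study targeted 3 of these genes, under the locus identifiers of its guide table; the edited plants themselves were not analysed here. There were 2 guides for SlGPAT4, 3 for SlGPAT5, 2 for SlASFT and none listed for SlABCG2. They are written in the order of the guide table, taken as 5′ to 3′, with the last 12 bases, the PAM side in that order, in capitals:
SlGPAT4 guide 1: ggggtaccCGGTGATGGTGG
SlGPAT4 guide 2: gatctcgtTGTATGCCCCGA
SlGPAT5 guide 1: tggccattAATTAAATTTCT
SlGPAT5 guide 2: aacaatttTGGCTTCGCTAC
SlGPAT5 guide 3: ggccttccAAGGCCTAAGCT
SlASFT guide 1: gatggagtTTGTGAATTCTT
SlASFT guide 2: tgagtataCTCAGGCTTTGG
Each of the 7 guides is 20 bases long, and none has the same sequence as another guide of the study's table. The GC content of the SlGPAT5 guides spans 25% to 60%, and that of the SlGPAT4 guides is 70% and 55%. The identifiers place SlGPAT4 on chromosome 1, SlASFT on chromosome 3, SlGPAT5 on chromosome 4 and SlABCG2 on chromosome 5, so that no 2 of the 4 share a chromosome.

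The libraries held 5198513 to 5666102 estimated counts in the protoplasted group and 5662566 to 5790082 in the whole-root group. A count of 0 at this depth allows a level of 0.518 to 0.577 CPM (3 counts of each library's total), a limit for counting error only. Levels below are normalized CPM, that is counts scaled to the library total (CPM) after edgeR's TMM scaling, and since the kit reads a transcript near its 3′ end they were not divided by transcript length. Of the 15966 genes tested, 18.7% passed an adjusted p of 0.05 with lower and 17% with higher levels after protoplasting (quasi-likelihood test of edgeR, Benjamini-Hochberg adjustment over all genes tested), and 9.78% passed it with a log2 fold change under -2. All 24 values of the 4 genes, 1 per gene and library, were whole numbers within 1e-06, so none of them showed reads split in fractions between gene models. The libraries are separate replicates by their labels, but nothing says that they came from separate cultures, so the p-values measure only the spread between these libraries.

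Each of the 4 genes fell after protoplasting, and their level after digestion was 0.525% to 1.60% of the whole-root mean. The log2 fold changes lay between -7.42 and -5.90, whereas the median over all 15966 genes tested was 0.02 and the 5th percentile was -3.03. For each gene every protoplasted library lay below every whole-root library, a separation that 25.6% of all genes tested showed in the same direction. In bulk libraries, fewer cells of a type and less RNA per cell cannot be told apart. The plot of levels by library shows this gap for each gene, and also the spread inside the protoplasted group.

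**Figure D1:**
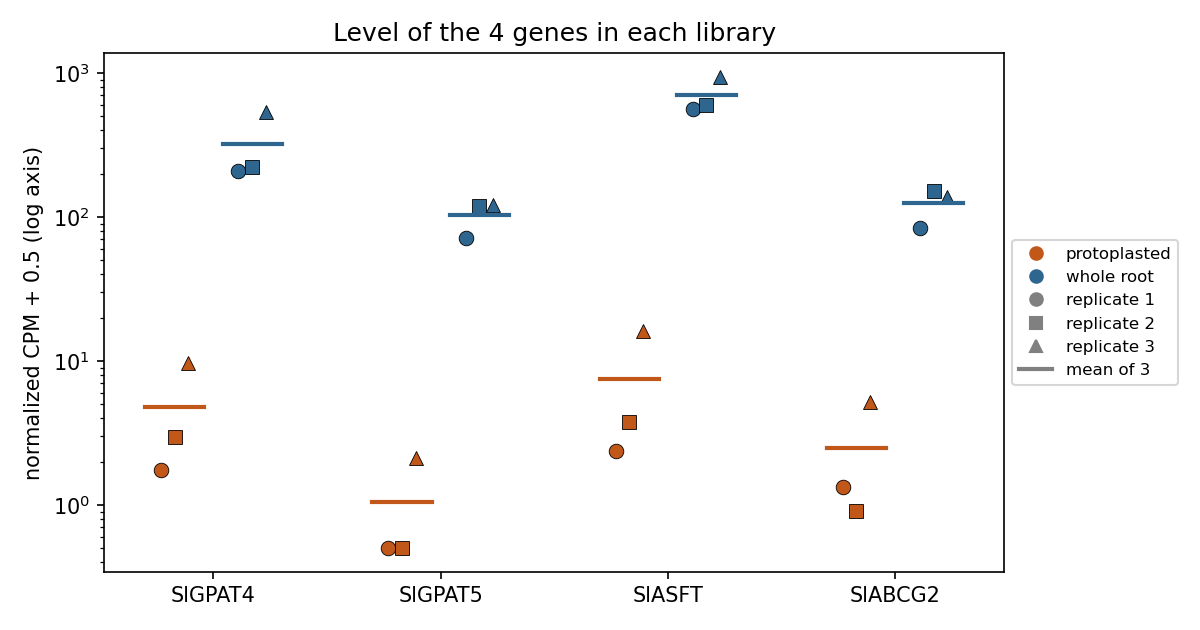
Normalized CPM + 0.5 on a log axis for the 4 genes in each library, protoplasted left of whole root, with symbols for replicate numbers and a line at the mean of 3 libraries. The protoplasted points lie at or below 15.8 CPM and the whole-root points at or above 71.3 CPM, and protoplasted replicate 3 is the highest protoplasted library for each gene.

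SlGPAT4, an acyltransferase of the glycerol-3-phosphate family whose Arabidopsis namesake is best known from cutin synthesis, had 1.25, 2.47 and 9.24 normalized CPM in protoplasted replicates 1, 2 and 3, against 207, 223 and 540 normalized CPM in whole-root replicates 1, 2 and 3. These are 6, 12 and 51 estimated counts in protoplasted libraries and 1293, 1337 and 3122 in whole-root libraries. The groups did not overlap, and replicate 3 was the highest library in both. The mean was 4.32 ± 4.30 CPM in protoplasted roots and 323 ± 188 CPM in whole roots (SD, n = 3 each). SlGPAT4 fell by 6.19 ± 0.74 (SE) on the log2 scale, 73.1-fold (edgeR adjusted p = 7.89e-04). Without protoplasted replicate 3 the log2 fold change was -7.46 (edgeR adjusted p = 6.23e-04), and without whole-root replicate 3 it was -5.60 (edgeR adjusted p = 0.00113). Its relative spread in whole roots was the widest of the 4, with a 2.61-fold distance between the lowest and the highest library.

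SlGPAT5 is the namesake of the Arabidopsis acyltransferase needed for root and seed coat suberin. It had no count in protoplasted replicates 1 and 2 and 1.63 normalized CPM (9 counts) in protoplasted replicate 3, against 71.3, 119 and 120 normalized CPM (446, 716 and 694 counts) in whole-root replicates 1, 2 and 3. The groups did not overlap, and all 9 protoplasted counts of this gene came from a single library. The mean was 0.543 ± 0.941 CPM in protoplasted roots and 103 ± 27.9 CPM in whole roots (SD, n = 3 each). SlGPAT5 fell by 7.42 ± 0.77 (SE) on the log2 scale (edgeR adjusted p = 5.00e-04), the largest decrease of the 4 in the fit. Against protoplasted replicates 1 and 2 alone, which had no count, the level was at least 188-fold lower in protoplasted roots, with 3 counts taken as the floor of each library, and edgeR's adjusted p without protoplasted replicate 3 was 3.69e-04. At 9 counts in all, the size of this decrease is the least precise of the 4.

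SlASFT, the feruloyl transferase of the pathway, was the most abundant of the 4 in every library. It had 1.88, 3.29 and 15.8 normalized CPM in protoplasted replicates 1, 2 and 3 (9, 16 and 87 counts), against 564, 596 and 944 normalized CPM in whole-root replicates 1, 2 and 3 (3531, 3580 and 5464 counts). The groups did not overlap, and replicate 3 was again the highest library of both. In whole roots SlASFT ranked 164th of the 15966 genes tested by mean CPM, whereas in protoplasted roots it ranked 10881st. The mean was 6.97 ± 7.64 CPM in protoplasted roots and 702 ± 211 CPM in whole roots (SD, n = 3 each). SlASFT fell by 6.63 ± 0.76 (SE) on the log2 scale, 98.9-fold (edgeR adjusted p = 6.70e-04), and the log2 fold change was -8.11 without protoplasted replicate 3 (edgeR adjusted p = 2.63e-04).

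SlABCG2, the half-size transporter of the group, had 0.835, 0.411 and 4.71 normalized CPM in protoplasted replicates 1, 2 and 3 (4, 2 and 26 counts). In whole-root replicates 1, 2 and 3 it had 83.3, 151 and 137 normalized CPM (521, 904 and 795 counts). The groups did not overlap, protoplasted replicate 3 was the highest protoplasted library, and here whole-root replicate 2 was the highest whole-root library. The mean was 1.98 ± 2.37 CPM in protoplasted roots and 124 ± 35.7 CPM in whole roots (SD, n = 3 each). SlABCG2 fell by 5.90 ± 0.68 (SE) on the log2 scale, 59.7-fold (edgeR adjusted p = 6.86e-04). Without protoplasted replicate 3 the log2 fold change was -7.62 (edgeR adjusted p = 3.69e-04).

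Set against the whole table, only 27 genes tested had a log2 fold change at or below that of SlGPAT5, 58 at or below that of SlASFT, 76 at or below that of SlGPAT4 and 96 at or below that of SlABCG2. Tested against a change of at least 2 on the log2 scale (edgeR's glmTreat), the adjusted p was 0.00364 for SlGPAT5, 0.00466 for SlASFT, 0.00602 for SlABCG2 and 0.00636 for SlGPAT4. All 4 therefore passed the stricter test as well. With few protoplasted counts, the 4 genes were tested only because of their whole-root counts, so these ranks were partly set by the filter. A filter of 10 counts in every library removed all 4.

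The order of the levels was the same in all 6 libraries, with SlASFT highest, then SlGPAT4, SlABCG2 and SlGPAT5. In whole roots the SlASFT libraries lay above all SlGPAT4 libraries, and these above all SlABCG2 libraries, but the ranges of SlABCG2 and SlGPAT5 overlapped. In protoplasted roots the ranges of all neighbours in this order overlapped. SlASFT made up 47.4%, 53.3% and 50.3% of the summed CPM of the 4 genes in protoplasted replicates 1, 2 and 3, and 61.0%, 54.8% and 54.2% in whole-root replicates 1, 2 and 3. SlGPAT4 contributed 31.6%, 40.0% and 29.5% in protoplasted replicates 1, 2 and 3, and 22.3%, 20.5% and 31.0% in whole-root replicates 1, 2 and 3. These 2 genes thus carried most of the transcript of the group in either condition.

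Together the 4 genes took 3.63e-04%, 5.77e-04% and 0.00305% of the estimated counts in protoplasted replicates 1, 2 and 3 (19, 30 and 173 counts), against 0.102%, 0.113% and 0.178% in whole-root replicates 1, 2 and 3 (5791, 6537 and 10075 counts). The groups did not overlap, and the mean was 98.4-fold lower in protoplasted roots (exact two-sided permutation p = 0.1, the smallest that 3 against 3 libraries allow). Protoplasted replicate 3 stood out, with a summed CPM of 31.3 that was 7.90 times that of replicate 1 and 5.08 times that of replicate 2, and without this library the mean share was 279-fold lower in protoplasted roots. It carried 73.9% of the protoplasted counts of SlGPAT4, 77.7% of those of SlASFT and 81.3% of those of SlABCG2, in addition to all those of SlGPAT5.

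Whether the 4 genes changed by the same factor was asked through the log2 ratio of 2 genes inside each library, which does not depend on the scaling of libraries. Over the 6 possible pairs the difference between groups had an exact two-sided permutation p of 0.1 for 4 pairs (0.15 after Benjamini-Hochberg adjustment over the 6), so no pair could pass a threshold of 0.05 in this design. The log2 ratio SlGPAT4/SlASFT was -0.55, -0.40 and -0.76 in protoplasted replicates 1, 2 and 3, against -1.45, -1.42 and -0.81 in whole-root replicates 1, 2 and 3. The groups were adjacent without overlap, and the mean was 0.65 higher in protoplasted roots. The ratio SlGPAT4/SlABCG2 differed by -0.01 between the groups (exact permutation p = 0.9), with means of 1.27 ± 0.94 in protoplasted roots and 1.28 ± 0.70 in whole roots (SD, n = 3 each).

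For the pairs that contain SlGPAT5, the difference depended on the small count added to each gene. With 0.5 counts added, the ratio SlGPAT5/SlABCG2 was -3.17, -2.32 and -1.48 in protoplasted replicates 1, 2 and 3 and -0.22, -0.34 and -0.20 in whole-root replicates 1, 2 and 3. SlGPAT5 had fewer counts than SlABCG2 in every library, and the 2 were near parity in whole roots. In protoplasted replicates 1 and 2 SlGPAT5 had 0 counts against 4 and 2 of SlABCG2. A count of 0 was taken to allow 3 counts, so replicate 2 cannot rank the 2 genes. The differences for these 3 pairs, protoplasted minus whole, were 2.06 for SlGPAT4/SlGPAT5, -1.40 for SlGPAT5/SlASFT and -2.07 for SlGPAT5/SlABCG2 with 0.5 counts added, and 0.49, 0.23 and -0.83 in the same order with 3 counts added. SlGPAT5 had 0 counts in 2 libraries, so no ranking of the pairs was drawn. The ratio SlASFT/SlABCG2 overlapped between the groups and was 0.67 lower in protoplasted roots (exact permutation p = 0.2).

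**Figure D2:**
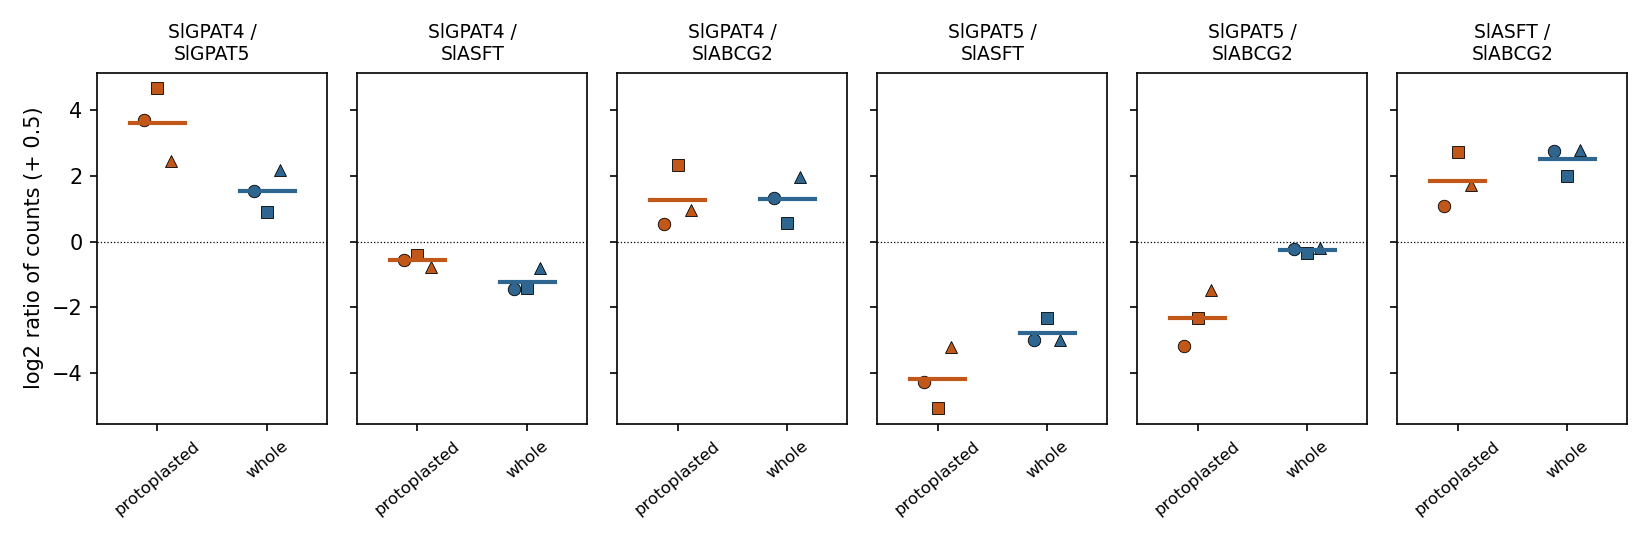
Log2 ratio of counts (0.5 counts added) for the 6 pairs of the 4 genes, protoplasted left of whole root, 1 point per library and a line at the mean of 3. The 2 groups overlap for SlGPAT4/SlABCG2 and SlASFT/SlABCG2 and are apart for the other 4 pairs, where the exact permutation p was 0.1 each.

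The enzymes that supply acyl chains to this step were lower as well. Of 7 named chain enzymes, 6 were tested and all 6 were lower, beside 18.7% of all genes tested, with a median log2 fold change of -5.90 beside -6.41 for the 4 genes and 0.02 for all genes tested. Without protoplasted replicate 3 the medians were -6.72 for the chain enzymes and -7.87 for the 4 genes. Of the 6 chain enzymes tested, 5 are also on the study's list of exodermal trajectory genes. Genes that the study called higher after protoplasting in these libraries had been removed before that list was made. The direction of these 5 was therefore partly set in advance. SlKCS2a and SlKCS2b, ketoacyl-CoA synthases that elongate fatty acids, averaged 6.27 and 2.69 normalized CPM in protoplasted roots, against 325 and 209 in whole roots, with log2 fold changes of -5.68 and -6.23 (edgeR adjusted p = 3.65e-04 and 7.80e-04). SlCYP86A and SlCYP86B1, of the P450 family that oxidizes the ω end of the chain, had log2 fold changes of -5.74 and -6.07 (edgeR adjusted p = 6.00e-04 and 3.31e-04). The acyl-CoA synthetase SlLACS4 averaged 1.57 CPM in protoplasted and 174 CPM in whole roots (log2 fold change -6.73, edgeR adjusted p = 3.17e-04). The fatty acyl-CoA reductase SlFAR3A, of the family that makes primary alcohols, had the smallest decrease of the 6, with 1.43 CPM in protoplasted and 20.3 CPM in whole roots (log2 fold change -3.79, edgeR adjusted p = 4.56e-04), and SlFAR3B was not analysed here.

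The MYB factors were less alike. SlMYB92, a suberin regulator named by the study, had 0.626, 0.411 and 0.543 CPM in protoplasted replicates 1, 2 and 3, at most 3 counts each, against 30.5, 19.3 and 21.1 CPM in whole-root replicates 1, 2 and 3, and the groups did not overlap (log2 fold change -5.43, edgeR adjusted p = 2.44e-04). SlMYB41, whose Arabidopsis namesake induces suberin genes, averaged 1.12 CPM in protoplasted and 4.09 CPM in whole roots (log2 fold change -1.84, edgeR adjusted p = 0.0271). That call was lost with limma-voom (adjusted p = 0.0643) and in edgeR without protoplasted replicate 1, 2 or 3 (adjusted p = 0.0644, 0.0876 and 0.0661) or whole-root replicate 3 (adjusted p = 0.114). SlMYB63 had single counts in 1 protoplasted and 1 whole-root library and was not tested.

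Other gene groups of the pathway came from the descriptions in the study's lists of co-expressed and trajectory genes. The co-expressed genes were chosen in other data sets. The trajectory genes came from single-cell data from which the study had removed the genes it called higher after protoplasting in the present libraries, so a decrease among them is not independent evidence of direction. Among other acyltransferases 2 of 3 listed genes were tested and both were lower, beside 18.7% of all genes tested. Solyc07g056320, also annotated as a glycerol-3-phosphate acyltransferase, had 0.835, 0.411 and 1.09 CPM in protoplasted replicates 1, 2 and 3 and 32.8, 74.6 and 80.9 CPM in whole-root replicates 1, 2 and 3 (log2 fold change -6.28, edgeR adjusted p = 2.64e-04). In whole roots it averaged 62.8 CPM, below both SlGPAT4 and SlGPAT5, and its groups did not overlap either. Solyc08g078030, a transferase, had a log2 fold change of -4.91 (edgeR adjusted p = 0.00149).

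Of the supply of substrate to GPAT, the glycerol-3-phosphate dehydrogenase gene Solyc04g016330 averaged 2.76 CPM in protoplasted and 45.9 CPM in whole roots (log2 fold change -4.03, edgeR adjusted p = 4.56e-04). Of the phenylpropanoid genes, grouped by their descriptions and not by a shown supply of feruloyl-CoA to ASFT, 3 of 3 were lower. That stands beside 18.7% of all genes tested, and the median log2 fold change of the 3 was -3.77. The O-methyltransferase Solyc03g080180 kept 29.2 ± 13.5 CPM in protoplasted roots, against 198 ± 20.3 CPM in whole roots (SD, n = 3 each), and fell by 2.76 on the log2 scale (edgeR adjusted p = 0.00102). The cinnamoyl-CoA reductase Solyc03g097170 fell by 3.77 on the log2 scale (edgeR adjusted p = 0.00187). In both genes the decrease was smaller than in any of the 4 assembly, feruloylation and export genes, though this difference was not tested. The remaining gene of this list, the 4-coumarate:CoA ligase Solyc07g008360, was named here after its values were seen. It fell by 5.58 on the log2 scale (edgeR adjusted p = 7.80e-04), nearer to the 4 genes.

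On the side of export and polymerization, 3 of 3 other ABC transporters tested were lower, beside 18.7% of all genes tested, with a median log2 fold change of -5.56 (-6.32 without protoplasted replicate 3 and -4.95 without whole-root replicate 3). Solyc11g009100 fell by 5.56 on the log2 scale (edgeR adjusted p = 0.00123), whereas Solyc06g074940 fell by 1.43 (edgeR adjusted p = 0.0288), with 5.80 CPM in protoplasted and 15.8 CPM in whole roots. The call on Solyc06g074940 was lost in edgeR without protoplasted replicate 1 or 2 or whole-root replicate 2 or 3 (adjusted p = 0.0743, 0.0961, 0.0864 and 0.0825). All 10 lipid transfer protein genes tested were lower (median log2 fold change -5.87, with -7.18 without protoplasted replicate 3 and -5.08 without whole-root replicate 3). Solyc09g082280, the most abundant of them, had 24.2, 102 and 496 CPM in protoplasted replicates 1, 2 and 3 and 3307, 6545 and 15018 CPM in whole-root replicates 1, 2 and 3, and replicate 3 was the highest in both groups (log2 fold change -5.32, edgeR adjusted p = 0.00665). Solyc09g065430, the next in abundance, fell by 5.04 on the log2 scale (edgeR adjusted p = 0.00149). Of the GDSL esterases 5 of 5 were lower (median log2 fold change -5.57, with -6.77 without protoplasted replicate 3 and -4.95 without whole-root replicate 3), with log2 fold changes of -6.52 for Solyc02g090210 (edgeR adjusted p = 2.61e-04) and -1.94 for Solyc06g065530 (edgeR adjusted p = 0.00258). The call on another GDSL esterase, Solyc11g011110, named here after its values were seen, was lost with limma-voom (adjusted p = 0.125) and in edgeR without protoplasted replicate 2 (adjusted p = 0.0731). Across the 32 pathway genes called lower in these lists, leaving out protoplasted replicate 3 made the decrease over 1.5 times larger for 16, and leaving out whole-root replicate 3 or 1 made it over 1.5 times smaller for 8 and 4. Leaving out protoplasted replicate 1 made it that much larger for 1 gene. With 10 counts required in every library, 1 other ABC transporter (log2 fold change -1.52) and 1 GDSL esterase (-2.04) were left. The same filter left 3 lipid transfer protein genes (median -5.41). The medians of the ABC and GDSL lists thus rested mainly on genes with few protoplasted counts.

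**Figure D3:**
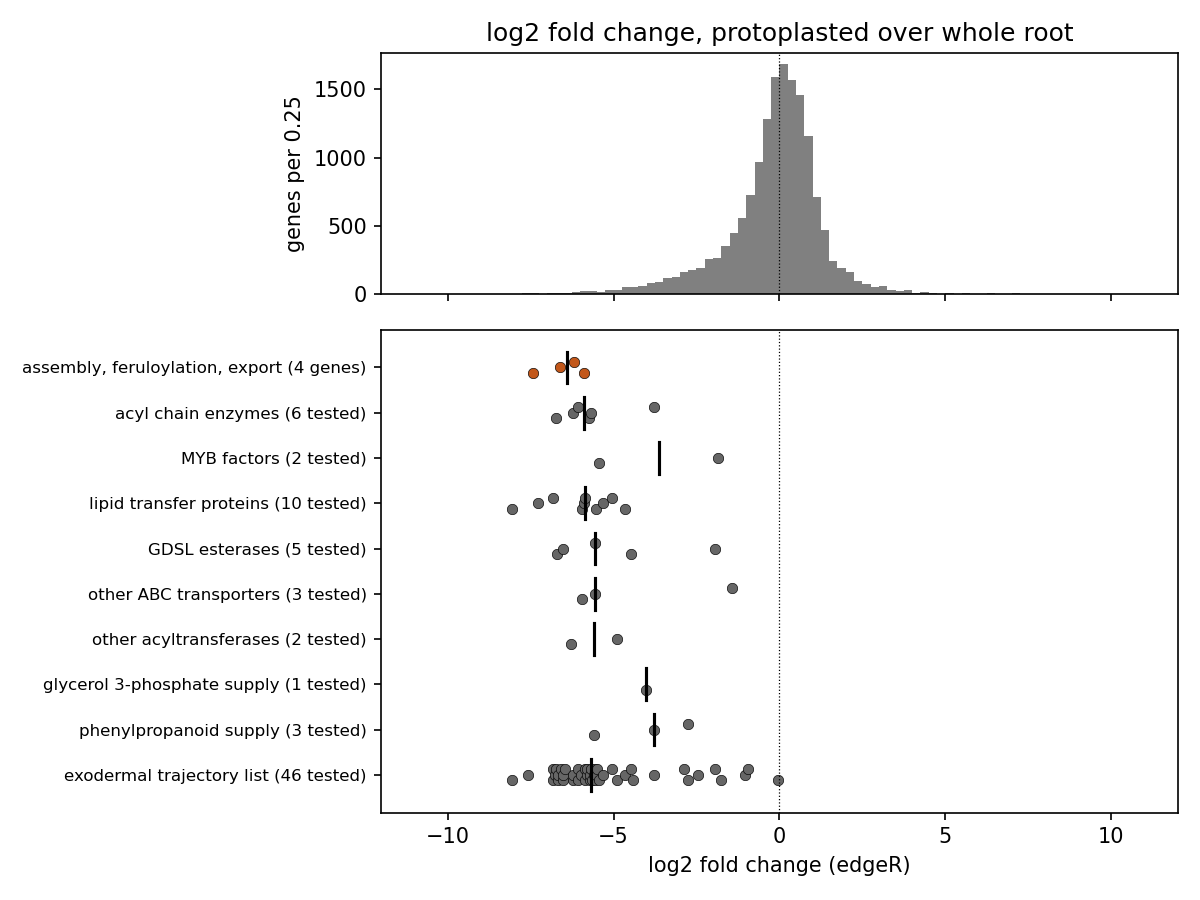
Log2 fold change of protoplasted over whole roots, as a histogram of all 15966 genes tested above and as 1 point per gene below, for the 4 genes and for each list of pathway genes, with a bar at each list's median. The 4 genes lie between -7.42 and -5.90, and no gene of the lists lies above 0.

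The exodermal trajectory list served as the marker list for the cells that make suberin. Of its 50 genes 3 are SlGPAT4, SlGPAT5 and SlASFT, and SlABCG2 is not among them. Of the other 47 genes, 46 were tested, 45 were lower and none was higher, beside 18.7% lower and 17% higher of all genes tested, with a median log2 fold change of -5.69 (-6.77 without protoplasted replicate 3). Genes that the study called higher after protoplasting in these libraries had been removed before this list was made. The lack of higher genes in it was therefore partly set in advance, and SlGPAT4, SlGPAT5 and SlASFT passed the same removal. The lists above overlap with the trajectory list, so their counts are not separate evidence. The summed level of the tested genes of the trajectory list was 440, 528 and 1032 CPM in protoplasted replicates 1, 2 and 3, against 8476, 11856 and 23820 CPM in whole-root replicates 1, 2 and 3, and no tested gene of it was without counts in all 3 protoplasted libraries. Its 2 most abundant genes, the lipid transfer protein gene Solyc09g082280 and Solyc01g105770, were both lower, and Solyc01g105770 fell by 5.87 on the log2 scale (edgeR adjusted p = 0.00265). In protoplasted replicate 1, 79.3% of this sum came from the 5 tested genes of the list that were not called with a log2 fold change under -2. For the other 41 genes, a subset taken after the values were seen, the sum was 91.0, 226 and 794 CPM in protoplasted replicates 1, 2 and 3, against 7978, 11389 and 23294 CPM in whole-root replicates 1, 2 and 3. In this subset, as for the 4 genes, protoplasted replicate 3 was the highest protoplasted library, with 8.72 times the sum of replicate 1 beside 7.90 times for the 4 genes. The lipid transfer protein gene Solyc09g082280 alone gave 24.2, 102 and 496 CPM of the subset's sums in protoplasted replicates 1, 2 and 3. Over the whole list the sum of protoplasted replicate 3 was 2.34 times that of replicate 1, so the nearness of 8.72 and 7.90 depended on the genes chosen. The part of exodermal marker level in the decrease of the 4 genes was not tested, and the sources at hand gave no markers of other root cell types.

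The 5 loci on either side of each gene, in the order of the locus identifiers, were set beside it. Of the 29 tested neighbours of the 4 genes, 7 were lower and 1 was higher, beside 18.7% lower and 17% higher of all genes tested, with a median log2 fold change of 0.06. Of the 7, Solyc01g094690 beside SlGPAT4 and Solyc04g011560 near SlGPAT5, with log2 fold changes of -0.92 and -0.89, were no longer called without some single libraries (edgeR adjusted p of up to 0.115 without whole-root replicate 1 for Solyc01g094690, and up to 0.0774 without whole-root replicate 2 for Solyc04g011560). None of the 7 tested neighbours of SlGPAT5 and none of the 6 of SlASFT had a log2 fold change under -2. Around SlGPAT4, 4 of 7 neighbours were lower, and 1 of them strongly so: SlCYP86A, the P450 gene above, lies 4 loci on. Around SlABCG2 the next locus, Solyc05g054900, annotated as a blue copper protein, fell by 6.83 on the log2 scale (edgeR adjusted p = 5.16e-04), whereas the other 8 tested neighbours did not pass the test. Identifier order stands here for position along the chromosome, and no coordinates were used.

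**Figure D4:**
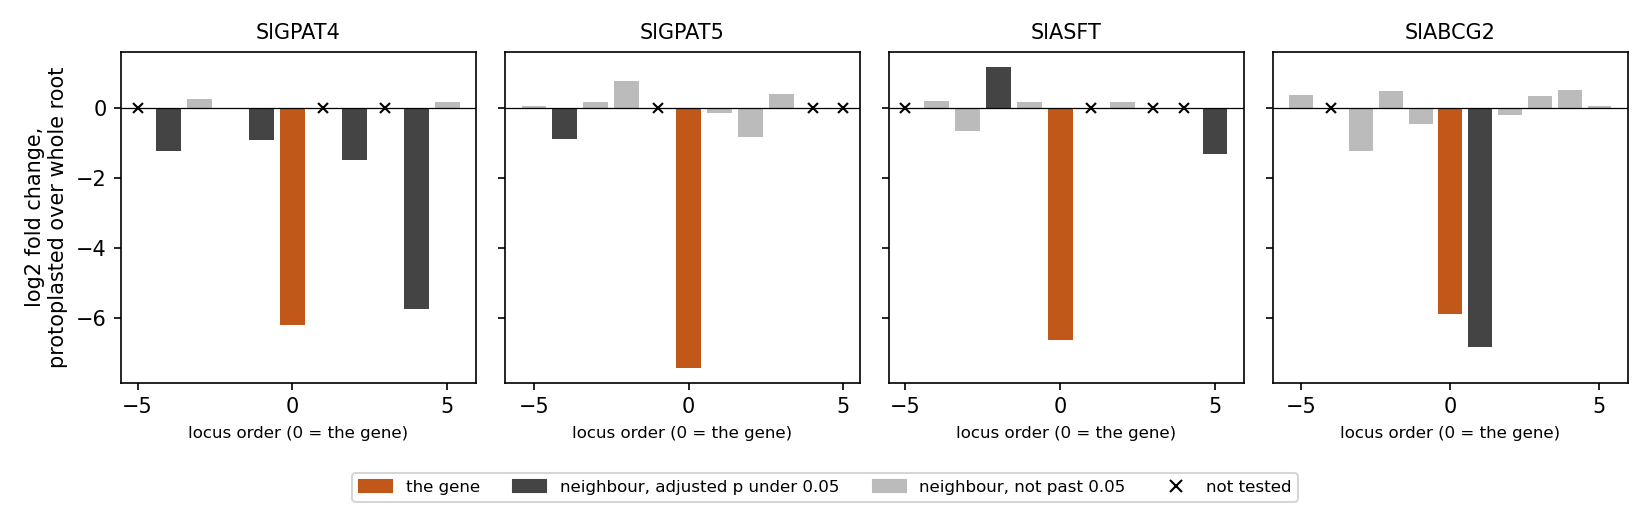
Log2 fold change of protoplasted over whole roots for the 4 genes (position 0) and the 5 loci on either side in identifier order, with crosses for loci not tested. The only neighbours under -2 are SlCYP86A, 4 loci from SlGPAT4, and Solyc05g054900, next to SlABCG2.

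The genes most like each of the 4 were found by the root mean square (RMS) difference over the 6 libraries of log2(normalized CPM + 0.5), each gene taken relative to its own whole-root mean, among 10157 genes with a whole-root mean of at least 10 CPM, the 4 genes themselves left out. SlGPAT4 was most like SlKCS2b (RMS difference 0.14), followed by the peroxidase gene Solyc06g050440 (0.29) and Solyc11g012705 of the pollen Ole e 1 and extensin family (0.34). SlKCS2b had 0.626, 1.65 and 5.79 CPM in protoplasted replicates 1, 2 and 3 and 113, 164 and 351 CPM in whole-root replicates 1, 2 and 3, so that in both groups replicate 3 was highest and replicate 1 lowest, as for SlGPAT4. SlGPAT5 and SlASFT had the same 3 nearest genes among these, the laccase gene Solyc06g082240 (0.38 and 0.26), the ketoacyl-CoA synthase gene Solyc10g009240 (0.42 and 0.27) and Solyc05g054900 (0.39 and 0.38), the neighbour of SlABCG2. The counts of the laccase gene were not whole numbers in all libraries, so reads shared with another gene model may enter its values. SlABCG2 itself was most like Solyc02g085180 of the alpha/beta fold family (0.27), the CASP-like gene Solyc02g078250 (0.37) and Solyc11g012705 (0.39). All of these genes had log2 fold changes between -6.83 and -5.71, which the choice largely fixed, because the RMS difference includes the gap between the groups. The distances from SlGPAT5 rest in part on the 0.5 CPM added where it had no count.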

How the data were processed

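Bulk RNA was measured with the QuantSeq 3′ kit in 3 protoplasted and 3 whole-root samples, grouped by their labels. The authors trimmed reads with Trim Galore 0.6.6, ran kallisto 0.46.2 on read 1 against ITAG4.1 transcripts and deposited estimated counts per gene model, without normalization and with 1 column per library. Pooling of sequences ahead of trimming is mentioned in the methods, which name no molecular identifiers or strand option.

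Rounded estimated counts entered edgeR 4.0.16 (R 4.3.3; filterByExpr with a minimum count of 10, TMM, quasi-likelihood test, no replicate block), with p-values adjusted over 15966 genes. The SE is the log2 fold change divided by the root of F. Single values were compared by exact permutation tests (scipy). Alternatives were other normalizations and filters, limma-voom (limma 3.58.1), DESeq2 1.42.0, a replicate block, glmTreat and leaving out each library. The test was checked on simulated counts. No columns of other samples were present. Same-numbered libraries had correlations of 0.438, 0.116 and 0.547 in their deviations from the group means. Libraries of different numbers had correlations from -0.480 to 0.027, all below the same-numbered ones. The numbers come from the labels, and the main test did not use them.

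Named were the 4 genes, all named pathway genes, the 2 most abundant genes of each unnamed list, and the 3 genes most like each of the 4. Solyc07g008360 and Solyc11g011110 were named after their values were seen. The members and lists were chosen with earlier results of these data known. No reference sequence or coordinates of these loci were used: 0 of the identifiers were found in the gene table of assembly SLM_r2.1. The single-cell libraries and edited plants were not analysed here.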

Additional observations from a re-analysis of the deposited data

How the results depend on the processing

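The 4 genes were lower with an adjusted p under 0.05 in every alternative that gave them a value. Over other normalizations, filters, limma-voom, DESeq2, glmTreat and the replicate block, the log2 fold change ranged from -6.45 to -6.18 for SlGPAT4, -8.57 to -7.40 for SlGPAT5, -7.10 to -6.62 for SlASFT and -6.44 to -5.88 for SlABCG2. A filter of 10 counts in every library removed all 4, which then had no value. With the replicate block the log2 fold changes were -6.36, -7.48, -6.92 and -6.00 for SlGPAT4, SlGPAT5, SlASFT and SlABCG2 (edgeR adjusted p of at most 1.69e-05), and no count of lower or higher genes in a list moved by over 1.5 times. Pairing the libraries by number, the exact sign-flip permutation test gave p = 0.25 for the summed share of the 4 genes, the smallest that 3 pairs allow. Leaving out 1 library moved the log2 fold change within -7.46 to -5.60 for SlGPAT4, -8.11 to -6.20 for SlASFT and -7.62 to -5.46 for SlABCG2, with the lowest value of each without protoplasted replicate 3. For SlGPAT5 the highest was -6.90, and without that library no protoplasted count was left.

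Of the 46 trajectory genes, 12 passed a filter of 10 counts in every library, 11 of them lower with a median of -2.69, and leaving out 1 library gave medians between -6.77 and -5.20. With the same filter, 1 chain enzyme (log2 fold change -5.78) and 1 phenylpropanoid gene (-2.85) were left, both lower. The MYB factors, the other acyltransferases and the glycerol-3-phosphate dehydrogenase gene then had no value. The difference in the ratio SlGPAT4/SlABCG2 ranged from -0.54 to 0.36 with 1 library left out, and was above 0 without protoplasted replicate 1 (0.36) or 3 (0.14) and without whole-root replicate 1 (0.0018) or 3 (0.33), and that of SlGPAT5/SlASFT changed sign with 3 counts added (0.23). Scaling by library size alone shifted the all-gene median on the log2 scale from 0.02 to -0.14 and the lower share of all calls from 52.4% to 64.6%. Leaving out 1 library gave 1522 to 2747 higher and 2059 to 3082 lower genes in all, against 2711 and 2981 with all 6. Depth limits SlGPAT5 most, with 9 protoplasted counts.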
